A study of Homo sapiens with 104 samples.

Results

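The B-cell receptor signalling genes described here are 9 of the 19775 genes with a probe set of their own on the array: the receptor chains CD79A and CD79B, the kinases LYN, BLK, SYK and BTK, the adaptor BLNK, and the inhibitory surface proteins CD22 and CD72. They were chosen by name, through the probe sets that the platform annotation gives to a single one of these symbols. All 9 were among the 13842 genes left after the lowest 30% by mean level were removed. Total RNA of lymphoblastoid cell lines, B cells kept in culture after transformation by Epstein-Barr virus, was hybridised to Affymetrix expression arrays. A panel of 24 such lines came from a polymorphism discovery resource of the NIH, and 2 further lines were TK6 and MT1, the second known as a derivative of TK6 that lacks mismatch repair. Each line was measured untreated, in mid log phase growth, and after MNNG, a methylating agent that damages DNA, with 2 arrays for each of the 52 groups. Each panel line comes from a different person, while TK6 and MT1 are related to each other, so neither is a replicate of the other or of the panel. The labels give no dose or time of MNNG, and do not say whether the arrays of a group came from separate cultures, so p-values measure the spread between arrays or lines as they were deposited. Genotypes other than the line names are not given.

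The B-cell receptor is a membrane immunoglobulin held together with the CD79A and CD79B chains, whose tails carry the tyrosine motifs that start the signal. Src family kinases, in B cells mainly LYN, FYN and BLK, phosphorylate these motifs, SYK docks on them, and SYK then phosphorylates BLNK, the scaffold on which BTK activates phospholipase C gamma and so calcium and NF-kB signalling. CD22 and CD72 carry inhibitory motifs which LYN phosphorylates and which recruit phosphatases that damp the signal. Lymphoblastoid lines carry viral membrane proteins that mimic parts of this signal, and they keep a surface phenotype of activated B cells.

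The MNNG arrays differed in a spiked control, and the labels give no reason for it. In 22 of them, 21 from the panel and 1 from MT1, a control probe set for a spiked bacteriophage transcript lay 5.19 to 6.45 log2 units below its partner for the same transcript, against 0.082 to 0.83 above it in the other 82 arrays. Those 22 arrays were left out, which left 52 untreated and 30 MNNG arrays. Of the panel lines, 8 kept both MNNG arrays, 11 kept 1 and 5 kept none (lines 6, 7, 8, 11 and 16), so responses of the panel are those of 19 lines. Median deposited intensity per array was 16.0 to 64.4. Levels below are log2(intensity + 16) after quantile normalisation. The lowest possible level is 5, so differences of dim genes, here BLK in TK6 and MT1 and CD72 throughout, are understated. The labelled cell type was checked against marker genes. The B-cell marker MS4A1 (CD20) had a median level of 12.5 over untreated arrays, with TK6 at 11.2 and MT1 at 6.41, the lowest of the 26 lines. The T cell markers CD3D and CD3E had medians of 6.05 and 5.65, the myeloid marker CD14 5.64 and the epithelial marker EPCAM 5.31, all near the bottom of the scale. LYZ, at a median of 7.66, COL1A1, at 7.01, and the plasma cell marker SDC1, at 6.67, were above it. So was the epithelial keratin KRT8, at a median of 7.56 and highest in TK6, at 9.84, where it was 2.53 ± 0.42 above the panel (limma, adjusted p = 0.00012). MT1 was 2.32 ± 0.42 above the panel for KRT8. The part of these markers in the results was not tested.

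In untreated panel lines the kinases BLK and SYK differed most between lines. BLK had a lowest line mean of 6.11 (line 2), a median of 8.38 and a highest of 9.18 (line 22), a range of 8.40-fold on this scale, and 96.5% of all genes tested had a smaller range. SYK ran from 6.70 (line 7) over a median of 8.55 to 9.68 (line 17), which is 7.93-fold. Both SYK arrays of line 7 lay below both of line 17, but these lines were picked as the extremes, so this is no test. The SD between the duplicate arrays of a group was 0.134 for SYK and 0.206 for BLK. The BLK values fell into a low end with lines 2, 1 and 15 and a high end with lines 22, 11 and 4. Between lines, 8 of the 9 genes differed beyond the duplicate spread by limma's F test on single arrays with Benjamini-Hochberg adjustment over all genes, where 68.1% of all genes did (adjusted p 3.11e-23 for SYK and 2.35e-19 for BLK).

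The receptor chains behaved unlike each other. CD79A ran from 10.31 (line 24) to 10.97 (line 21), a range of 1.58-fold, and its duplicates differed by up to 0.454, so its order over lines is not resolved: none of the 25 gaps between neighbouring lines exceeded 2 SD of the duplicates. CD79B ran from 7.61 (line 11) over a median of 8.79 to 9.79 (line 14), a range of 4.55-fold (adjusted p 2.77e-17), and 92.1% of genes had a smaller range. CD79A passed the same F test with an adjusted p of 0.0214, but without line 24 the adjusted p was 0.079, with arrays centred 0.37 and with its probe sets averaged 0.22.

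LYN, the kinase that serves both the activating and the inhibitory arm, was the member that did not pass the F test (adjusted p = 0.296). That value is from 202625_at, the probe set that stands for the gene here. Tested on their own by the F test, LYN's 202626_s_at (adjusted p = 0.00059) and 210754_s_at (3.78e-05) did pass. On 202625_at the line means of LYN ran from 9.71 (line 13) to 10.57 (line 23). Its duplicates there had the largest spread of the 9 genes (SD 0.277 over 35 pairs, largest gap 0.770). BTK, whose loss causes X-linked agammaglobulinaemia, had the narrowest range of the set, from 8.80 (line 1) to 9.41 (line 20), or 1.52-fold, with an adjusted p of 4.38e-06. The adaptor BLNK ran from 10.2 (line 11) to 11.4 (line 14), 2.21-fold. The inhibitory CD22 and CD72 ran from 8.35 (line 2) to 9.91 (line 23), 2.93-fold, and from 5.53 (line 4) to 7.34 (line 10), 3.52-fold. For every one of the 9 genes most neighbours in the order of the 26 lines lay closer than 2 SD of the duplicates, with at most 3 of 25 gaps wider, in BLK and SYK.

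**Figure D1:**
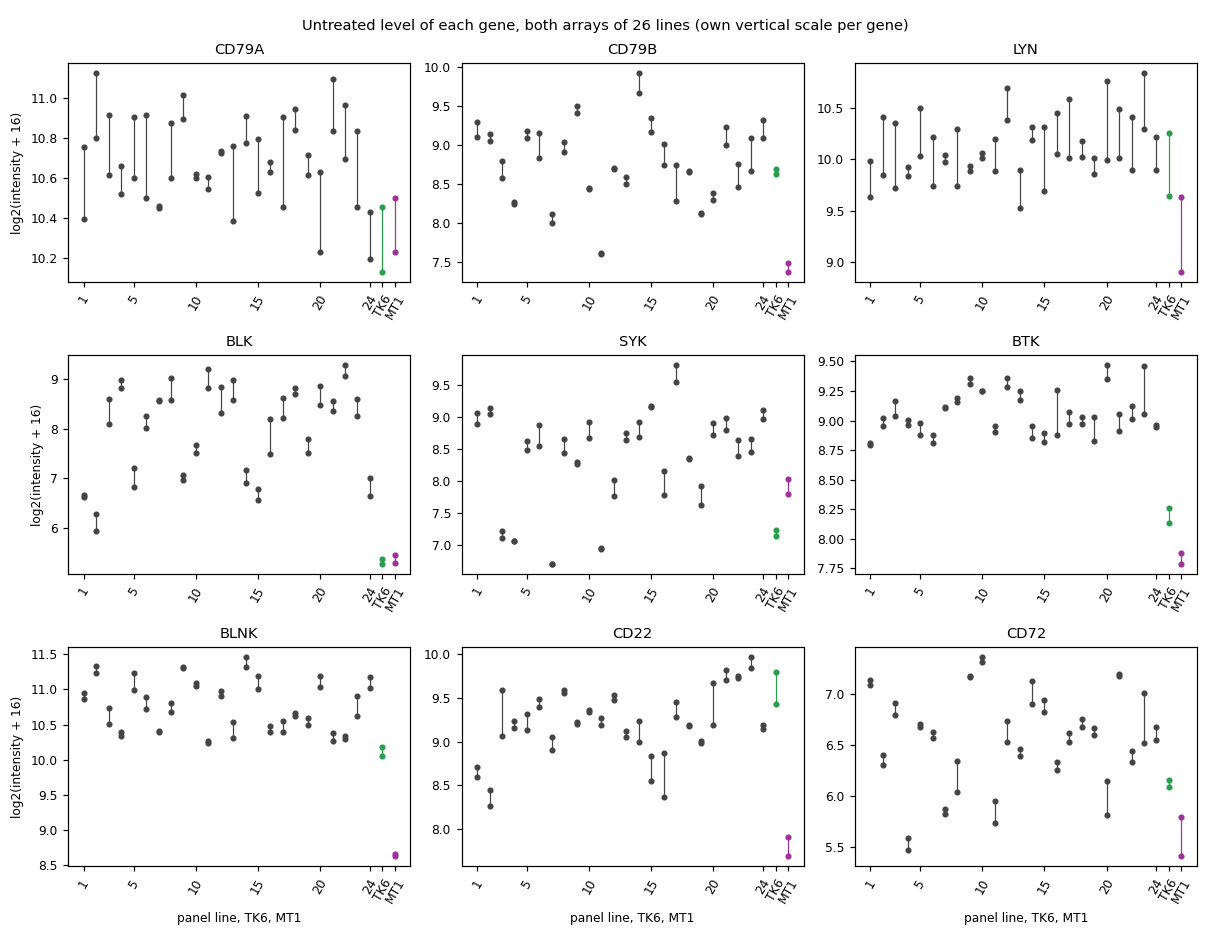
Level of each gene, log2(intensity + 16), in both untreated arrays of each of the 26 lines, joined by a line; black points are panel lines, green TK6 and purple MT1, and each gene has its own vertical scale. BLK and SYK span about 3 units over the panel with duplicates close together, while for LYN and CD79A the gap between duplicates is of the size of the differences between lines.

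The arrays labelled replicate 2 read higher than those labelled replicate 1 for several of these genes. In untreated panel lines the mean difference, replicate 2 minus replicate 1, was 0.31 ± 0.30 (SD, n = 24 lines) for LYN, with replicate 2 higher in 19 of 24 lines. It was 0.18 ± 0.20 for CD79A, 0.18 ± 0.30 for BLK, 0.12 ± 0.19 for CD22, 0.11 ± 0.17 for CD79B and 0.095 ± 0.17 for SYK. For BLNK it was -0.086 ± 0.11, and for BTK and CD72 -0.015 ± 0.14 and -0.0096 ± 0.17. The MNNG arrays that were kept are mostly replicate 1: of the 11 lines with a single MNNG array, 9 kept replicate 1. Changes of the panel are therefore also given within replicate 1 and within replicate 2.

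Across the 24 untreated panel lines the genes did not rise and fall as 1 group. Pearson's r for the 36 pairs of members ran from -0.75 to 0.669 with a median of 0.131. The pair with the lowest value was BLK and BLNK (r = -0.75, Spearman's rho = -0.713): lines 2, 9 and 14, with BLK at 6.11, 7.02 and 7.04, had BLNK at 11.3, 11.3 and 11.4, the highest BLNK levels of the panel. CD79B went with BLNK (r = 0.669, rho = 0.647), with CD72 (r = 0.621, rho = 0.571) and with SYK (r = 0.593, rho = 0.53), and against BLK (r = -0.645, rho = -0.665). BLK went with CD22 (r = 0.642, rho = 0.515). These are descriptions over 24 lines measured on the same arrays, so that array-wide errors are shared between genes.

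Of all genes outside the set, those whose untreated level was most like a member's over the 24 panel lines had r of 0.642 to 0.895. For BLK they were DHX32 (r = 0.895) and TBC1D12 (r = 0.879), and for BLNK the Src-related kinase FRK (r = 0.895) and OGFRL1 (r = 0.862). FRK and TBC1D12 lay near the bottom of the scale in all lines (5.42 to 6.42 and 5.42 to 6.48), as did OTX2 (5.63 to 6.33), H1-4 (5.54 to 6.54) and SEPTIN7-DT (5.67 to 6.47). For CD79B they were the kinase STK3 and the mitochondrial enzyme GPD2 (both r = 0.852), for BTK PPCS (r = 0.836) and GPCPD1 (r = 0.803), and for SYK NUP205 (r = 0.822) and MND1 (r = 0.821). For CD22 they were TOMM20 (r = 0.785) and SEPTIN7-DT (r = 0.776), for CD72 CD164 (r = 0.778) and PLSCR1 (r = 0.774), for LYN OTX2 (r = 0.772) and KIAA0319L (r = 0.768), and for CD79A H1-4 (r = 0.656) and PDZD8 (r = 0.642). The best of 13842 genes is high by selection, so these values carry no test.

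After MNNG, BLK was lower in all 19 panel lines and CD22 in 18 of 19, while CD79A, CD79B, BTK and BLNK did not pass the test. BLK went from a lowest, median and highest line mean of 6.11, 8.35 and 9.18 untreated to 5.92, 7.60 and 8.54 after MNNG. The change by line ran from -0.93 (line 20) to -0.06 (line 10), with a mean of -0.49 ± 0.052 (SE, n = 19 lines), a fall of 1.41-fold (limma on line means with the line as a block, adjusted p = 1.44e-07). The ranges of the lines overlap between conditions, and the fall shows within lines. With the 22 arrays that were left out put back, BLK was at -0.12 (adjusted p = 0.31). CD22 had lowest, median and highest values of 8.35, 9.22 and 9.91 untreated and 8.14, 9.03 and 9.51 after MNNG, with a mean change of -0.34 ± 0.062 (adjusted p = 0.00011), a fall of 1.27-fold. Line 20 had by far the largest fall of CD22 (-1.29), and line 4 was the 1 line above 0 (0.094). In bulk RNA, fewer cells that express a gene and less RNA of it per cell cannot be told apart.

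SYK, the kinase that docks on the receptor chains, fell in 15 of 19 lines, by 0.29 ± 0.064 on the log2 scale (adjusted p = 0.00085), with values from -0.73 (line 24) to 0.38 (line 4). CD72 fell in 13 of 19 lines, with a mean change of -0.15 ± 0.057 (adjusted p = 0.035). The call of CD72 was lost when any 1 of the lines 1, 4, 5, 9, 15, 17 or 18 was left out, with adjusted p-values of 0.052 to 0.072, and on the values as deposited, without quantile normalisation (-0.06, adjusted p = 0.63). LYN fell in 14 of 19 lines with a mean change of -0.10 ± 0.034 (adjusted p = 0.019). This change is smaller than the 0.31 by which untreated replicate 2 exceeded replicate 1. With line and replicate number together as a block it was -0.0068 (limma, adjusted p = 0.92), so the call was lost. In that fit each line with both MNNG arrays entered as 2 pairs, so the unit was the pair and not the line.

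In all, 5 of the 9 genes passed the test downward and 0 upward, LYN and CD72 with the losses just given. Of all genes tested, 42.6% passed, 28.7% upward and 13.8% downward, and the median change of the 9 was -0.10 against 0.037 over all genes. The others were BTK at -0.073 ± 0.032 (adjusted p = 0.069), CD79A at -0.028 ± 0.045 (0.66), CD79B at -0.021 ± 0.027 (0.57) and BLNK at 0.025 ± 0.022 (0.37). With arrays centred on their medians CD79A, at -0.19 (0.034), and BTK, at -0.22 (0.020), passed downward as well, which gave 7 of 9. For CD79A the mean hides lines that lie apart: line 17 had a change of -0.53, and line 13 one of 0.19.

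**Figure D2:**
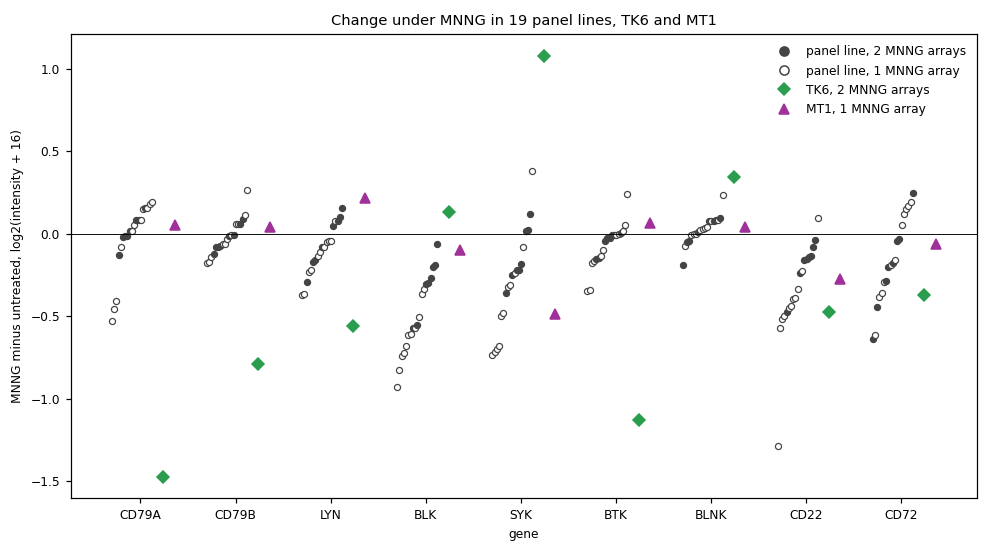
Change under MNNG (MNNG minus untreated line mean, log2 scale) of each gene; circles are the 19 panel lines in order of size, filled with 2 MNNG arrays and open with 1, diamonds TK6 and triangles MT1. All BLK circles lie below 0, from -0.93 to -0.06. TK6 lies outside the range of the panel lines for every gene but CD22 and CD72. In TK6, however, BLK was near the bottom of the scale, LYN did not pass, and BLNK lost the call with arrays centred.

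Within replicate 1, for which 17 lines had an MNNG array, BLK changed by -0.41 (adjusted p = 2.29e-06), CD22 by -0.29 (0.00031) and SYK by -0.28 (0.00073). CD72 was at -0.15 (0.095), LYN at 0.050 (0.30) and CD79A at 0.12 (0.019), the opposite sign to the value over both replicates. BTK, at -0.060 (0.26), CD79B, at 0.040 (0.43), and BLNK, at -0.023 (0.54), did not pass. Within replicate 2, with 10 lines, BLK changed by -0.36 (0.023), while CD22, at -0.21 (0.080), CD72, at -0.20 (0.12), SYK, at -0.12 (0.42), and LYN, at -0.10 (0.46), did not pass. The others did not pass there either: CD79A was at -0.11 (0.43), BTK at -0.092 (0.24), CD79B at -0.057 (0.57) and BLNK at 0.027 (0.77). So the fall of BLK passed within each replicate, those of CD22 and SYK within replicate 1, and those of CD72 and LYN within neither.

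The mean changes of BLK, CD22 and SYK lay further below 0 in lines that kept 1 MNNG array than in lines that kept both. Those of CD72, CD79B and BLNK went the other way, higher by 0.077, 0.015 and 0.034 in lines with 1 array. In the 8 lines with both arrays BLK changed by -0.31 ± 0.18 (SD), and in the 11 lines with 1 array by -0.63 ± 0.18. CD22 changed by -0.18 ± 0.13 and -0.46 ± 0.33, and SYK by -0.13 ± 0.17 and -0.40 ± 0.34, in the same order. In a limma test of the difference between both kinds of line, 0.0144% of all genes passed (2 genes) and none of the 9 did, with adjusted p-values of 0.32 for BLK (unadjusted 0.0015), 0.50 for CD22 and 0.55 for SYK. In the 8 lines with both arrays alone, BLK (adjusted p = 0.0064) and CD22 (0.020) passed, and SYK (0.11), CD72 (0.12) and LYN (0.62) did not. Of the 11 lines with 1 array, 9 kept replicate 1. The parts of replicate number and of the loss of arrays in the size of these changes were not tested.

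The array holds 21 probe sets for the 9 genes, and for some genes they differ in size. For CD22 all 4 fell in the panel, by 0.16 to 1.10 on the log2 scale: 204581_at, which stands for the gene here, changed by -0.34, 38521_at by -0.39, 220674_at by -0.16, and 217422_s_at by -1.10 ± 0.084 (adjusted p = 1.59e-09), a larger change than that of any other probe set of the 9 genes. For LYN the probe set that stands for the gene, 202625_at, moved least, at -0.10, whereas 202626_s_at changed by -0.41 ± 0.050 (adjusted p = 4.82e-07) and 210754_s_at by -0.46 ± 0.056 (5.69e-07). For SYK the case is the reverse: 207540_s_at fell, and 209269_s_at (-0.043 ± 0.052), 226068_at (-0.064 ± 0.050) and 244023_at (-0.024 ± 0.044) did not pass, although each followed 207540_s_at closely over untreated lines (r = 0.913 to 0.972, n = 24). The fall of SYK in the panel thus rests on 1 of its 4 probe sets, and the mean of the 4 was at -0.10 (0.064). For CD79A, 1555779_a_at changed by -0.19 ± 0.050 (adjusted p = 0.0034), where 205049_s_at did not pass. BLK's second probe set, 210934_at, near the bottom of the scale (median 5.65), changed by -0.11 ± 0.033 (0.011), and the 2 further CD79B probe sets were dim (medians 5.58 and 5.76), the second of which, 1555748_x_at, passed at -0.093 ± 0.035 (0.036). Of the 21 probe sets 13 passed, and of all 28768 probe sets tested in the same way 41.8% did. What sequence each probe set reads is not analysed here, and the cause of the differences was not tested.

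**Figure D3:**
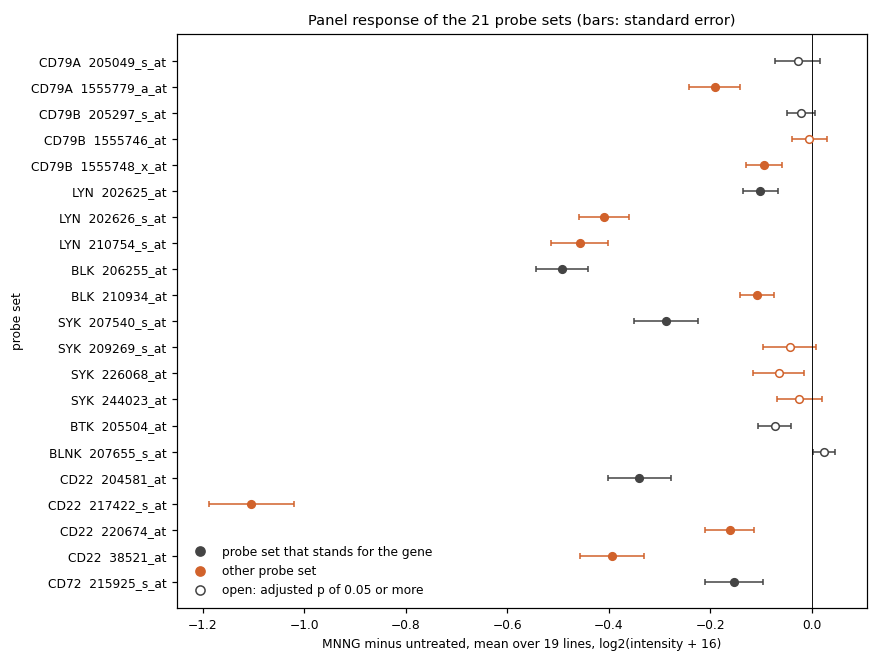
Mean change under MNNG over the 19 panel lines with its standard error (log2 scale) for each of the 21 probe sets, grouped by gene; black marks the probe set that stands for the gene, orange the others, and open circles an adjusted p of 0.05 or more. All probe sets of CD22 and LYN lie below 0 at unequal distance, and for SYK 1 of 4 does so past the test.

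Lines differed in the size of the response for 2 of the 9 genes, SYK and CD72, where 6.13% of all genes passed limma's F test on single arrays. For SYK the 6 lines with the largest falls, 24, 20, 15, 1, 3 and 17 (-0.73 to -0.48), each had 1 MNNG array, and line 4, also with 1, was at 0.38 (adjusted p = 0.0075). Without line 4 the adjusted p of SYK was 0.051. With each probe set tested on its own by the F test, SYK's 207540_s_at passed (adjusted p = 0.011). SYK's 209269_s_at (0.12), 226068_at (0.53) and 244023_at did not pass, and LYN's 210754_s_at did (0.015). CD72 ran from -0.64 in line 9 to 0.24 in line 12, both with 2 MNNG arrays (adjusted p = 0.0068). CD22 had the widest range, 1.38, with an adjusted p of 0.076. On values as deposited neither SYK nor CD72 passed (adjusted p = 0.79 and 0.81). Within replicate 1 or replicate 2 alone each panel group keeps 1 array, which leaves no spread within panel groups. Such a fit cannot decide whether the calls of SYK and CD72 hold within a replicate. Over the 19 lines the changes of BTK and CD72 went together (r = 0.671, rho = 0.712), as did those of BLK and LYN (r = 0.606, rho = 0.482), SYK and CD22 (r = 0.59, rho = 0.591) and BLK and CD22 (r = 0.581, rho = 0.463), again within the same arrays.

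In TK6 both receptor chains and BTK fell under MNNG and SYK rose. CD79A read 10.1 and 10.5 on the untreated arrays and 8.92 and 8.71 on the MNNG arrays, a change of -1.47 ± 0.16 or 2.78-fold (limma, adjusted p = 3.43e-10). BTK read 8.26 and 8.13 untreated and 7.13 and 7.01 after MNNG, a change of -1.13 ± 0.10 or 2.19-fold (2.52e-12). CD79B read 8.62 and 8.69 untreated and 7.98 and 7.75 after MNNG, a change of -0.79 ± 0.13 or 1.73-fold (1.46e-06). For each of these 3 genes the treated and untreated arrays did not overlap. With 2 arrays on each side that is a description, and how many of all genes do the same was not counted. SYK read 7.14 and 7.22 untreated and 8.43 and 8.09 after MNNG, a rise of 1.08 ± 0.13 or 2.11-fold (7.70e-09), again without overlap. BLNK rose by 0.35 ± 0.090 (0.0017), from 10.2 and 10.1 to 10.4 and 10.5, but was at 0.14 (0.69) with arrays centred on their medians in place of quantile normalisation.

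The probe sets bear on these values too. CD79A's second probe set changed by -1.58 in TK6, close to the first, and 3 of SYK's 4 rose (1.08, 1.06 and 1.15), with 244023_at at 0.29 (adjusted p = 0.27). LYN's main probe set was at -0.56 ± 0.26 (adjusted p = 0.088) and its others at -0.63 and -0.71 (0.00054 and 4.55e-06). LYN's untreated arrays lay 0.61 apart, at 9.65 and 10.3, and without the first of them the main probe set's change was -0.87 (0.029). CD22's other probe sets, at -0.94, -0.44 and -0.36, did not pass (limma, adjusted p = 0.068, 0.064 and 0.16). Nor did CD79B's dim ones, at -0.16 and -0.0053 (0.37 and 0.98). CD22's main probe set fell by 0.48 ± 0.16 on the log2 scale (0.012) and CD72 by 0.37 ± 0.12 (0.011). Both calls were lost without untreated replicate 2 (-0.29 and -0.34) or without MNNG replicate 2 (-0.23 and -0.29), and on values as deposited (-0.48, 0.068, and -0.20, 0.77). BLK, at 5.27 to 5.61 on all 4 arrays, was too near the bottom of the scale to show a fall. In all 7 of the 9 genes passed in TK6, 2 upward and 5 downward, where 41.2% of all genes did, 21.6% upward and 19.5% downward. The median change of the 9 was -0.48, and that of all genes was -0.029.

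CD79A and BTK are the members with the largest falls in TK6, and the 250 bases before the start of each are shown so that their first regulatory sequence can be compared. They are RefSeq sequences of GRCh38.p14, the CD79A window at chr19:41877029-41877278 on the plus strand and the BTK window at chrX:101390797-101391046 on the minus strand, each written 5′ to 3′ along the gene and ending at the base before its start. BTK has a second start in the table, whose window is not shown. Entries were found for 6 of the 9 genes. Capitals mark GAGGAA, a core of sites bound by the B-cell and myeloid factor PU.1, on either strand, which reads TTCCTC on the other strand.
CD79A: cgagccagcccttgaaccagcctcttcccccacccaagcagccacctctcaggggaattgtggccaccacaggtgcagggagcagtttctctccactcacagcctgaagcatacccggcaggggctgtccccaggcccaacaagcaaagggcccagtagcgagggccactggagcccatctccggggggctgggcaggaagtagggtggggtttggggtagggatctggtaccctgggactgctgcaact
BTK: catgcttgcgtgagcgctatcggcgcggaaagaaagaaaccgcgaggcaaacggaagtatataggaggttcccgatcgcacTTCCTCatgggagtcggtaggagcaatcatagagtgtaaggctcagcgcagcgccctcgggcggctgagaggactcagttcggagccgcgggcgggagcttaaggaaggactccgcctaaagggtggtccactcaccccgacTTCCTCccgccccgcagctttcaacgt
The BTK window held 2 matches, which begin 169 and 27 bases before the start, and the CD79A window held 0. Windows of SYK, which rose in TK6, and of CD72 held GAGGAA as well. The windows of BLNK and CD22, that of BTK's second start and another window of SYK held no match. Of 35116 promoter windows of this length 23.6% held GAGGAA. The octamer ATGCAAAT, bound by the OCT factors of B cells and searched on both strands, was in neither window and in 1.63% of all. A match is a run of letters, and binding was not measured here.

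**Figure D4:**
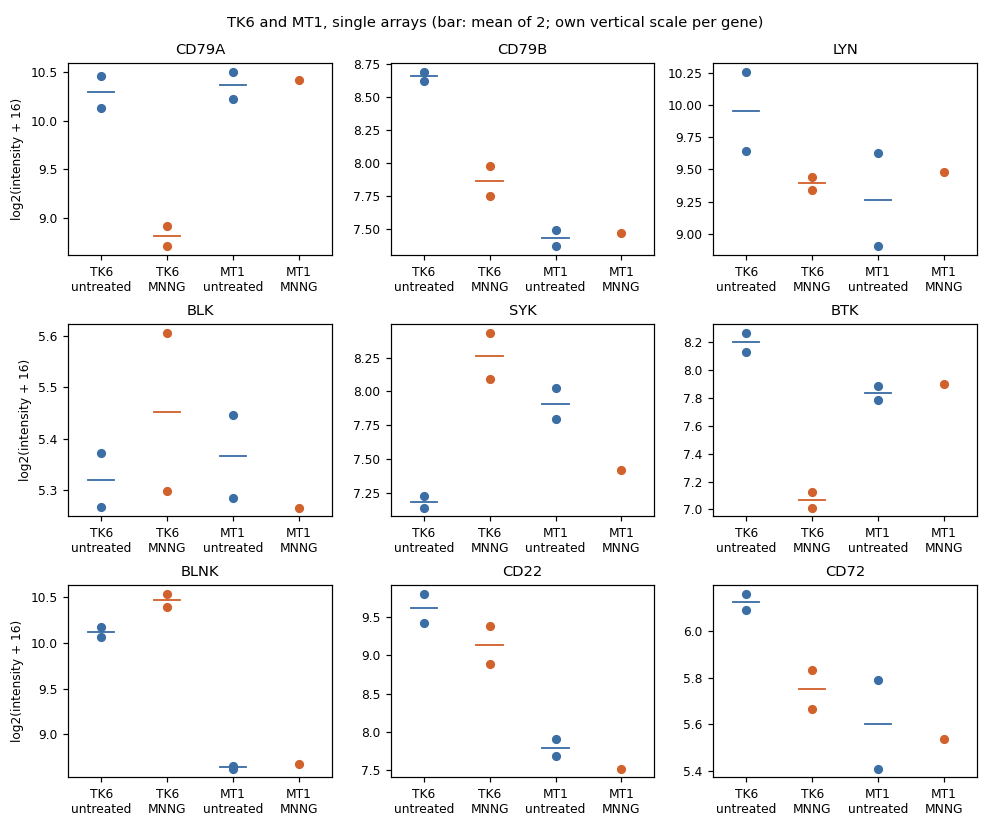
Level of each gene, log2(intensity + 16), on the single arrays of TK6 and MT1, untreated in blue and after MNNG in orange, with a bar at the mean where there are 2 arrays and an own vertical scale for each gene. In TK6 the MNNG arrays lie below the untreated ones for CD79A, CD79B and BTK and above them for SYK and BLNK, and in MT1 the single MNNG array lies within the untreated pair for CD79A, CD79B, LYN and CD72.

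In MT1, with 1 MNNG array kept, none of the 9 genes passed, where 3.56% of all genes did (493 genes, and 2121 at an unadjusted p under 0.05). The single MNNG array read 10.4 for CD79A, between the untreated values of 10.2 and 10.5, and 7.47 for CD79B, between 7.37 and 7.49. It read 7.90 for BTK, against 7.88 and 7.79. The changes of these 3 genes were 0.050 ± 0.20, 0.037 ± 0.15 and 0.061 ± 0.12. SYK had the largest change, -0.49 ± 0.16 (adjusted p = 0.091, unadjusted 0.0049), with 7.42 after MNNG and 7.80 and 8.02 before. As in the panel this was a matter of 207540_s_at, and the other SYK probe sets were at 0.16, 0.014 and 0.10 in MT1. Of the other probe sets LYN's 210754_s_at passed, at -0.68 (adjusted p = 0.0061). The lone MNNG array is taken to vary like the arrays of the other groups.

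The responses of TK6 and MT1 differed for CD79A, CD79B and BTK, which fell in TK6, and for SYK, which rose there. TK6 minus MT1 was -1.52 ± 0.25 for CD79A (limma contrast, adjusted p = 8.28e-06), -1.19 ± 0.16 for BTK (1.66e-07), -0.83 ± 0.20 for CD79B (0.0014) and 1.57 ± 0.21 for SYK (1.64e-07). With arrays centred on their medians CD79A, at -1.34 (0.096), and CD79B, at -0.77 (0.23), lost the call, and with probe sets averaged CD79B did, at -0.29 (0.14). SYK's contrast was 0.90 and 1.14 on 209269_s_at and 226068_at, both past the test, and 0.19 on 244023_at (0.78). These 4 of 9 compare with 24.7% of all genes, 12.2% upward and 12.5% downward. CD22 and CD72, at -0.20 ± 0.25 and -0.31 ± 0.19, did not pass, which leaves a wide interval for both.

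Untreated MT1 carried less of most of these genes than untreated TK6. CD22 read 7.69 and 7.90 in MT1 and 9.43 and 9.80 in TK6, a difference of -1.82 ± 0.16 or 3.53-fold (adjusted p = 1.39e-12), and its other probe sets differed by -1.09, -1.61 and -1.86. BLNK read 8.63 and 8.66 against 10.2 and 10.1, a difference of -1.48 ± 0.090 or 2.78-fold (5.63e-17). CD79B was lower by 2.34-fold (-1.23 ± 0.13, 2.15e-10), CD72 by 1.44-fold (-0.52 ± 0.12, 0.00076) and BTK by 1.29-fold (-0.36 ± 0.10, 0.0053). SYK was the member that was higher in MT1, by 0.73 ± 0.13 or 1.66-fold (3.41e-05), with 0.63 and 0.68 on 209269_s_at and 226068_at and -0.089 on 244023_at, which did not pass. CD79A was at 0.073 ± 0.16 (0.84), and all 4 arrays overlapped. In all 6 of 9 passed, 5 downward and 1 upward, where 25.2% of all genes passed, 11.7% downward and 13.6% upward. The call of CD72 was lost without MT1 replicate 1 (-0.33), that of BTK without MT1 replicate 2 (-0.32) or TK6 replicate 1 (-0.30), and LYN, at -0.69 ± 0.26 (0.052), passed without either of the latter 2 (-1.05 and -0.99). LYN's other probe sets passed the limma contrast with no array left out, 202626_s_at at -0.63 (adjusted p = 0.0012) and 210754_s_at at -0.62 (8.98e-05). On values as deposited BTK (-0.39, adjusted p = 0.18) and CD72 (-0.52, 0.45) did not pass, nor did BTK with arrays centred (-0.42, 0.16). Of the 7 B-cell marker genes 4 were lower in MT1, MS4A1 (-4.80 ± 0.060), FCER2 (-3.02 ± 0.19), CD37 (-2.24 ± 0.27) and EBF1 (-0.49 ± 0.14), CD40 was higher (0.43 ± 0.099), and PAX5 and CR2 did not pass.

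Against the 24 panel lines, BTK and BLK were lower in both TK6 and MT1. Each of these is 1 line mean, so the SE rests on the spread between panel lines, and TK6 or MT1 is assumed to vary like them. BTK was at 8.20 in TK6 and 7.83 in MT1, below the lowest panel line (8.80), with differences from the panel of -0.86 ± 0.18 (limma on line means, adjusted p = 0.0010) and -1.23 ± 0.18 (1.41e-05). BLK arrays read 5.27 to 5.45 in these lines, near the bottom of the scale and below the lowest panel line, with differences of -2.66 ± 0.87 (0.036) and -2.61 ± 0.87 (0.038), which the bottom of the scale limits. In TK6 these were the 2 of 9 that passed downward (8.74% of all genes). In MT1, 5 passed downward (8.94% of all genes): besides these, BLNK at -2.13 ± 0.35 (7.78e-05), CD22 at -1.42 ± 0.37 (0.0073) and LYN at -0.84 ± 0.21 (0.0055). MT1 was the lowest of all 26 lines for CD79B, BTK, BLNK, LYN and CD22. The call of LYN was lost without replicate 1 (-0.64) and with arrays centred (-0.63), that of BLK in TK6 with probe sets averaged (-1.43, adjusted p = 0.055), and that of CD79B in MT1 (-1.34, adjusted p = 0.054) was gained without line 7, 11, 14 or 19 (-1.30 to -1.39). TK6 and MT1 share an origin, so these comparisons are not independent.

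The wider pathway was described with a list of 83 further genes, 73 of them measured. In the panel 12 of 73 rose and 26 fell, where 28.7% of all genes rose and 13.8% fell, and the median change was -0.057. Of the 18 kinases and phosphatases 11 fell and 2 rose, of the 30 adaptors and enzymes 8 fell and 5 rose, of the 14 coreceptor and membrane genes 4 fell and 2 rose, and of the 11 genes of the NF-kB and NFAT arm 3 fell and 3 rose. The largest falls were of inhibitory and regulatory genes and a survival kinase: the phosphatase PTPN22 (-0.33 ± 0.043), the inositol phosphatase INPP5D, known as SHIP1, on which inhibitory receptors converge (-0.29 ± 0.044), the inhibitory receptor LILRB1 (-0.28 ± 0.042), AKT1 (-0.27 ± 0.046) and PTPRCAP, a partner of the phosphatase CD45 (-0.25 ± 0.042). The largest rises were of the calcium channel ITPR2 (0.34 ± 0.055), the exchange factor VAV3 (0.34 ± 0.093), the transcription factor NFATC2 (0.24 ± 0.036), BCL10 of the NF-kB arm (0.23 ± 0.039) and SH3BP5, a binding partner of BTK (0.21 ± 0.032). All 10 passed limma's test with adjusted p-values of at most 0.0054. Between untreated panel lines 64 of the 73 genes passed the F test (68.1% of all genes), and 9 of 73 differed between lines in response (6.13% of all genes).

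In TK6, 26 of the 73 genes rose, 10 fell and 37 did not pass, where 21.6% of all genes rose and 19.5% fell, and the median change was 0.17. The largest rises were of HRAS (2.24 ± 0.27), the NF-kB kinase IKBKB (1.71 ± 0.096) and the calcium channel ITPR1 (1.44 ± 0.13), and the largest falls of the ubiquitin ligase CBLB (-1.82 ± 0.14), AKT2 (-1.43 ± 0.18) and MALT1 (-0.93 ± 0.14). In MT1, 2 rose, SH3BP5 (0.57 ± 0.16) and BCL10 (0.52 ± 0.14), and 0 fell, where 2.36% of all genes rose and 1.21% fell. For the difference between the responses of TK6 and MT1, 16 of 73 passed upward and 10 downward, beside 12.2% and 12.5% of all genes. Untreated MT1 had 16 of 73 genes lower than TK6 and 5 higher, beside 11.7% and 13.6% of all genes. The largest differences downward were those of BANK1, a B-cell scaffold (-3.57 ± 0.14), the phospholipase PLCG2 (-1.98 ± 0.077) and the kinase FGR (-1.96 ± 0.095), and upward those of ITPR1 (0.88 ± 0.13), ITPR2 (0.86 ± 0.19) and CHUK (0.75 ± 0.15).

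Genes known to be switched on when the receptor is engaged were a list of 11, of which 9 were measured. In the panel 4 of 9 fell and 1 rose (13.8% and 28.7% of all genes), in TK6 6 rose and 1 fell (21.6% and 19.5%), and in MT1 3 rose (2.36%). As examples, the chemokine gene CCL4 changed by 3.70 ± 0.13 in TK6 and 0.72 ± 0.16 in MT1. The early growth response gene EGR3 was at -0.32 ± 0.050 (panel), 1.35 ± 0.13 (TK6) and 0.54 ± 0.16 (MT1). CCL4 and EGR3 were picked after their values were seen.

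Markers of other states of the B lineage moved in the same comparisons. Of all genes 28.7% rose and 13.8% fell in the panel, and 21.6% rose and 19.5% fell in TK6. Of 7 plasma cell genes, 6 rose and 1 fell in the panel. PRDM1, the master regulator of plasma cells, rose by 0.57 ± 0.060, and IRF4 was the gene that fell, at -0.39 ± 0.060. In TK6 the same list split into 3 that rose, PRDM1 (2.25 ± 0.10), TNFRSF17 (2.30 ± 0.13) and SDC1 (1.40 ± 0.14), and 3 that fell, MZB1 (-2.72 ± 0.14), XBP1 (-1.18 ± 0.11) and IRF4 (-0.65 ± 0.19). Of 7 B-cell genes 1 rose and 3 fell in the panel. In TK6, 3 rose, CD40 (0.99 ± 0.099), PAX5 (0.66 ± 0.13) and MS4A1 (0.60 ± 0.060), and 2 fell, EBF1 (-1.03 ± 0.14) and CD37 (-0.80 ± 0.27). PAX5 and EBF1 are both known to activate CD79A, and their part in its fall in TK6 was not tested. Of 6 myeloid genes 1 rose in TK6, ITGAM by 2.27 ± 0.16. Of these genes, those other than MS4A1 and SDC1 were picked after their values were seen. The mean level over the 7 B-cell genes was 7.80 to 10.4 over untreated arrays and 7.90 to 10.4 over MNNG arrays, and that over the 7 plasma cell genes 7.26 to 10.4 and 7.27 to 10.4. For T and NK cells the mean level was 5.64 to 6.28 and 5.61 to 6.02, and for myeloid cells 5.53 to 6.25 and 5.73 to 6.36. The part of these marker genes in the changes of the receptor genes was not tested.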

How the data were processed

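The values are intensities that the authors deposited, made from the arrays with PLIER per the submitters' processing notes, without its version. They have a floor of 16 and reach 65535. Levels are log2(intensity + 16), quantile normalised over 82 arrays. MNNG arrays with the cre control difference over 2 log2 units were left out. Probe sets were named from the platform annotation (41097 of 54675 with 1 symbol), genes were represented by the probe set of highest mean, and the lowest 30% of genes were left out. Tests used limma 3.58.1 in R 4.3.3, with a trended prior and Benjamini-Hochberg adjustment over 13842 genes, at an adjusted p of 0.05, and were tested on simulated data. Line was the block for the panel, and the other contrasts came from group means of single arrays. SE is that of the moderated test. Promoters came from RefSeq (GRCh38.p14), and figures from matplotlib 3.10.9 in Python 3.11.15. Members and lists were chosen with earlier results of these data known. Named outside the 9 members were the 5 called pathway genes with the largest change each way in the panel, 3 each way in the other contrasts, the 2 genes most like each member, and defining markers. The number of arrays limits the precision.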

Additional observations from a re-analysis of the deposited data

Results flagged for a closer look

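The responses of TK6 and MT1 to MNNG differed by a limma contrast of the difference itself for 4 of the 9 genes. On the log2 scale the difference, TK6 minus MT1, was -1.52 for CD79A, -0.83 for CD79B, -1.19 for BTK and 1.57 for SYK. The MT1 side rests on 1 MNNG array, and CD79A and CD79B lost the call with arrays centred on their medians.

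The response also differed between panel lines for SYK and CD72 by limma's F test over 19 lines, 11 of them with a single MNNG array. The changes spanned 1.12 log2 units for SYK and 0.88 for CD72, and neither gene passed on values as deposited. With each probe set tested on its own, 207540_s_at of SYK passed this F test, and SYK's other probe sets did not.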

How the results depend on the processing

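With no array left out the panel had 9685 genes called, LYN stood at 0.11 and CD72 at 0.097, the opposite direction, BLK (-0.12) and SYK (-0.059) lost the call, CD79A (-0.84), CD79B (-1.22), BTK (-1.41) and BLNK (0.38) gained it, TK6 had 0 members and 464 genes called, MT1 14 genes, TK6 minus MT1 0 members and 126 genes with CD79B at 0.18 and BTK at 0.058, the opposite direction, untreated MT1 minus TK6 1 member and 178 genes, the response F test 0 members and 290 genes, and the untreated F test 4 members and 1379 genes. On values as deposited TK6 had 3623 genes called, MT1 99, TK6 minus MT1 1294, untreated MT1 minus TK6 1591, and the response F test 0 members and 79 genes, with the median of all genes at 0.13 (panel), 0.12 (TK6) and 0.31 (MT1). With arrays centred on their medians the panel had 3291 genes called, MT1 67, TK6 minus MT1 2 members (BTK and SYK) and 1682 genes, untreated MT1 minus TK6 2057, and the response F test 1 member and 442 genes. The split into higher and lower genes moved with these scalings: 3978 and 1914 in the panel became 4100 and 961 as deposited and 950 and 2341 when centred, 326 and 167 in MT1 became 92 and 7 and 15 and 52, and 1682 and 1733 for TK6 minus MT1 became 552 and 742 and 1152 and 530. With probe sets averaged per gene, 1 member was called for TK6 minus panel. With every probe set tested on its own 12031 probe sets were called in the panel. In the 8 lines with both MNNG arrays, an alternative chosen after seeing the data, 2 members and 2415 genes were called.

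Leaving out a replicate number or a line gave 1 to 6 members and 1188 to 6262 genes in the panel, CD79A from -0.11 to 0.12 and LYN from -0.12 to 0.050, 0 to 2 members and 3 to 932 genes in the response F test, and 212 to 326 genes in MT1. Without replicate 1 the panel had 1188 genes, and without line 4 the response F test had 1 member and 467 genes. Pairing of arrays by replicate number was checked in TK6 and the 8 panel lines with both MNNG arrays. Over these 9 pairs the correlation of deviations ran from -0.62 to 0.14, and 2 exceeded 0.1. Lines with 1 MNNG array could not enter this check, so it does not decide whether replicate numbers pair their arrays. With line and replicate number together as a block, 498 genes were called in the response F test. In the panel LYN was then at -0.0068 (limma, adjusted p = 0.92), while BLK, SYK, CD22 and CD72 passed. In that panel fit each line with both MNNG arrays entered as 2 pairs, so the unit was not the line. Of 576 member values under other settings 516 kept direction and call, 45 lost the call, 11 gained it and 4 reversed, and of 1224 with a replicate or line left out these were 1188, 26, 8 and 2. A further 26 and 13, counted among those that kept both, changed sign without being called in either setting. The causes were not tested.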
